A study of Mus musculus with 40 samples.

Results

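Acat1 and Bdh1, which act at the start and at the end of ketone body synthesis, and Pdk1, Pdk2, Pdk3 and Pdk4, the kinases of the pyruvate dehydrogenase complex, were followed in the livers of mice exposed to GenX. The 6 genes were chosen by symbol out of 21448 gene symbols in the counts. They were measured by 7 of 30146 probes, a pair of probes for Bdh1 and a single probe for each of the other genes. All 7 probes passed the filter on low counts, as did 17877 probes in all.

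In liver mitochondria, fatty acid oxidation yields acetyl-CoA. When much of it is made, part is turned into ketone bodies, which the liver exports and other tissues burn. Acat1 joins a pair of acetyl-CoA molecules into acetoacetyl-CoA and also takes part in the breakdown of isoleucine and of ketone bodies. Bdh1 reduces acetoacetate to 3-hydroxybutyrate, the main circulating ketone body. The steps between these enzymes were not analysed here. Pyruvate dehydrogenase makes acetyl-CoA from pyruvate, the product of glycolysis, and the Pdk kinases switch it off by phosphorylating its E1 alpha subunit. Pdk4 is known for its rise in fasting and for its induction by fatty acids through the PPAR receptors, Pdk2 for its wide distribution over tissues, and Pdk1 for its induction by hypoxia.

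The samples were 40 livers of wildtype Crl:CD1(ICR) mice, given GenX, a fluorinated ether carboxylate, by oral gavage for 90 days. Males and females each formed 4 groups of 5, with a daily dose of 0.1, 0.5 or 5 mg per kg of body weight (mg/kg), or no GenX. Control mice received deionized water only. The age of the mice is not given in the sources used here. Formalin-fixed, paraffin-embedded sections were scraped from slides and measured with TempO-Seq, in which probe pairs joined on their target RNA are amplified and counted, so each value is for all cells of the section. In such bulk samples, fewer cells of a type and less RNA per cell cannot be told apart. One female of the 0.5 mg/kg group, mouse 355, was dropped for its low total of 6711981 reads, which was beyond 2 SD under the average library. The 39 mice kept had 10341341 to 15562253 reads.

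A single captured molecule was estimated to give 20.8 to 49.8 reads, so that a library held an estimated 287241 to 656745 molecules. Male controls had a median of 329947 molecules and males at 5 mg/kg of 591294, whereas female controls had 418492 and females at 5 mg/kg 320469. Levels below are CPM, a count relative to its library's total with TMM scaling, and are compared between mice for the same probe only, since probes differ in how well they capture their target. Changes are log2 fold changes with SE from edgeR's quasi-likelihood test, and a gene was called when its Benjamini-Hochberg adjusted p over all 17877 probes was below 0.10. The mice are separate animals, and the labels put them in no batch.

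At 5 mg/kg, 2 of the 6 genes were called in each sex, all as higher: Acat1 and Pdk4 in males, and Acat1 and Bdh1 in females. Of all probes tested, males had 8.28% called at this dose, and females 3.66%. At 0.5 mg/kg, Acat1 was called in males, where 2.38% of all probes were called, and none of the 6 genes in females, where the share was 0.213%. At 0.1 mg/kg, none of the 6 genes was called in either sex, with a share of 0.0336% of all probes in males and of 0% in females. Over the 6 dose comparisons, the numbers of probes with an unadjusted p below 0.05 lay between 1826 and 3943. None of the 6 genes was called lower at any dose.

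Acat1, the thiolase that opens the pathway (chr9:53580522-53610382 on GRCm38, minus strand), rose in males at the 2 higher doses and in females at the highest. In male controls its level was 449, 367.4, 400.5, 475.1 and 331.4 CPM, with a mean of 404.7 ± 58.5 (SD, n = 5). At 0.5 mg/kg the males had 670.4, 644.8, 718.2, 868.8 and 629.3 CPM, and those at 5 mg/kg had 751.9, 845, 917.7, 767.7 and 739.3 CPM. Every male at these doses lay above every male control. The log2 fold change was 0.80 ± 0.15 at 0.5 mg/kg (1.75-fold, edgeR adjusted p = 0.000617) and 0.99 ± 0.15 at 5 mg/kg (1.99-fold, edgeR adjusted p = 2.5e-06). At 0.1 mg/kg the 5 males had 419.2 to 493.8 CPM and overlapped with the controls, with a log2 fold change of 0.15 ± 0.15 (edgeR adjusted p = 1).

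In female controls Acat1 was at 404.9, 285.2, 510.3, 402.4 and 596.7 CPM, a wider spread than in male controls, with a mean of 439.9 ± 118.4 (SD, n = 5). The females at 5 mg/kg had 730.6, 847, 743, 918.8 and 685.2 CPM, all above the highest control, and the log2 fold change was 0.84 ± 0.15 (1.78-fold, edgeR adjusted p = 0.00013). The 4 females at 0.5 mg/kg had 764.2, 519.7, 678.7 and 549.3 CPM and overlapped with the controls. Their log2 fold change of 0.51 ± 0.16 did not pass the threshold (edgeR adjusted p = 0.327). It passed with DESeq2 (adjusted p = 0.0678), with counts in captured molecules (edgeR adjusted p = 0.0971) and without control mouse 155, the highest of the female controls (0.65 on the log2 scale, edgeR adjusted p = 0.0817). DESeq2 called 1.57% of its probes in this comparison and the fit in molecules 1.88%, against 0.213% in the main fit. At 0.1 mg/kg the females had 399.5 to 642.6 CPM, 0.16 ± 0.15 from the controls on the log2 scale (edgeR adjusted p = 1).

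The effect of GenX on Acat1 was not shown to differ between the sexes. The female effect minus the male effect on the log2 scale was 0.02 ± 0.21, -0.29 ± 0.22 and -0.16 ± 0.21 in order of dose, and edgeR's adjusted p was 1, 0.775 and 1. Of all probes, 0%, 0.274% and 1.04% were called in these interactions. The step from 0.5 to 5 mg/kg was 0.19 ± 0.15 in males (edgeR adjusted p = 0.827) and 0.32 ± 0.16 in females (edgeR adjusted p = 0.355), and neither was called, against 2.64% and 1.23% of all probes. Control females and control males overlapped in their Acat1 level, and differed by 0.12 ± 0.15 (edgeR adjusted p = 0.973).

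Bdh1, the dehydrogenase at the end of the pathway (chr16:31422280-31458901, plus strand), was called higher only in females at 5 mg/kg. The female controls had 100.4, 95.68, 139.7, 127.2 and 193.4 CPM (mean 131.3 ± 39.2, SD, n = 5), and the females at 5 mg/kg had 202.8, 214.6, 205, 212.8 and 271.2 CPM (mean 221.3 ± 28.4, n = 5). Each treated female was above each control, and the log2 fold change was 0.75 ± 0.19 (1.68-fold, edgeR adjusted p = 0.0105). At 0.5 mg/kg the 4 females had 163.4, 158.6, 182.7 and 184.4 CPM, inside the range of the controls because of control mouse 155, with a log2 fold change of 0.39 ± 0.20 (edgeR adjusted p = 0.485). All 5 females at 5 mg/kg were above all 4 at 0.5 mg/kg, but this step of 0.36 ± 0.20 was not called (edgeR adjusted p = 0.395).

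In males Bdh1 was not called at any dose. The male controls had 246.5, 178.3, 174.8, 189.7 and 156.2 CPM (mean 189.1 ± 34.3, n = 5), and the males at 5 mg/kg 255.7, 223.6, 168.4, 234.4 and 219.8 CPM (mean 220.4 ± 32.2, n = 5), so that the groups overlapped. The log2 fold change was 0.22 ± 0.18 at the highest dose (edgeR adjusted p = 0.673), and 0.13 ± 0.18 and -0.19 ± 0.18 at the middle and the lowest (edgeR adjusted p = 1 in both). On the most counted probe, the mean level at 5 mg/kg was nearly the same in males and females. The control females were 0.53 ± 0.19 lower than control males on the log2 scale, with overlapping ranges (edgeR adjusted p = 0.15), while 3.49% of all probes were called in this comparison. That difference passed with DESeq2 (adjusted p = 0.0504) and with counts in captured molecules (edgeR adjusted p = 0.0257). These settings called 5.95% and 16.4% of their probes. The female effect minus the male effect at 5 mg/kg was 0.53 ± 0.26 (edgeR adjusted p = 0.397), so a difference between the sexes was not shown.

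The second Bdh1 probe, with 31255 reads over the 39 mice against 93034 on the first, gave the same direction at 5 mg/kg and no call. Its mean was 53.6 ± 20.6 CPM in female controls and 82.2 ± 15.4 CPM in females at 5 mg/kg (n = 5 each), with overlapping ranges and a log2 fold change of 0.62 ± 0.25 (edgeR adjusted p = 0.258). In males at 5 mg/kg it was 0.21 ± 0.25 (edgeR adjusted p = 0.887). The mean on this probe at 5 mg/kg was 65.35 ± 11.54 CPM in males (n = 5), lower than in females. The lower level in control females was not seen with this probe, on which the difference from control males was -0.07 ± 0.25 on the log2 scale (edgeR adjusted p = 1).

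**Figure D1:**
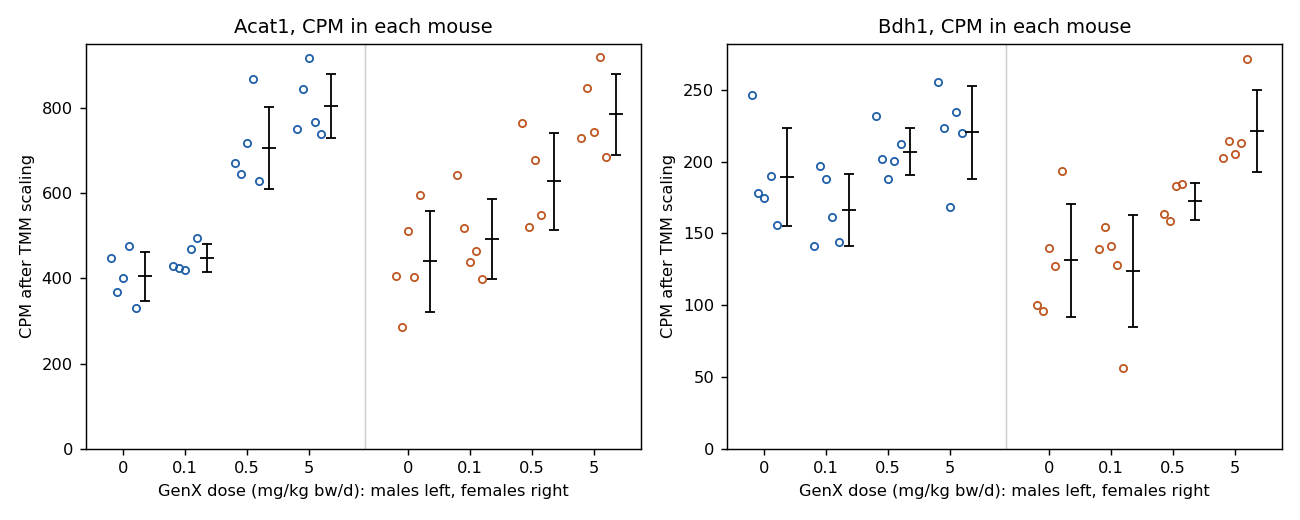
Level of Acat1 (left) and Bdh1 (right, most counted probe) in each mouse, in CPM after TMM scaling, by sex and GenX dose. Open circles are mice, and bars beside them are the mean ± SD of 5 mice (4 for females at 0.5 mg/kg). Acat1 at 5 mg/kg lies between 739.3 and 917.7 CPM in males and between 685.2 and 918.8 CPM in females, above all controls, whereas Bdh1 separates from the controls in females at 5 mg/kg only.

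**Figure D2:**
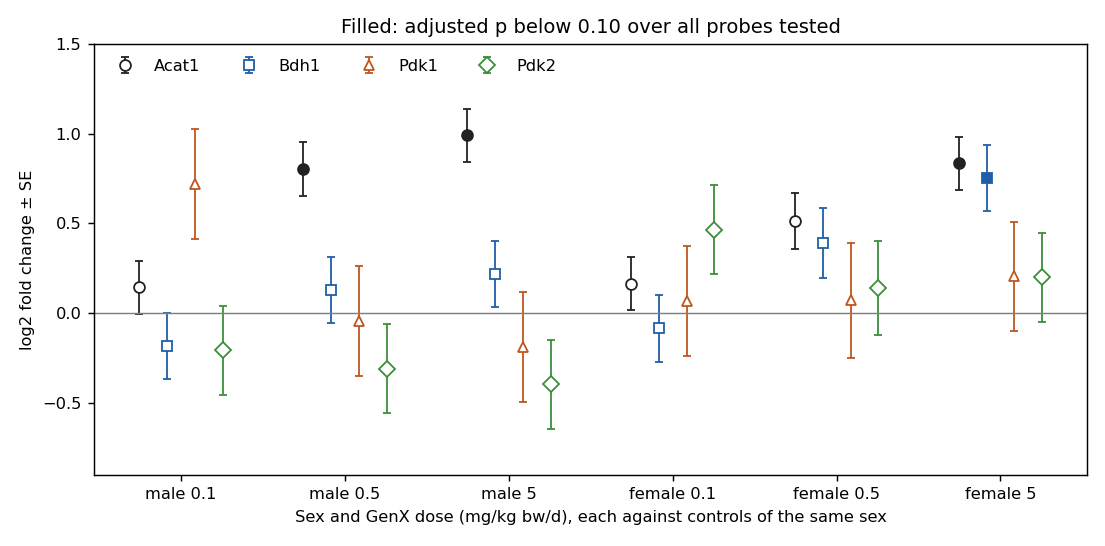
The log2 fold change ± SE of Acat1, Bdh1, Pdk1 and Pdk2 at each dose against the controls of the same sex, from edgeR. Filled symbols mark an adjusted p below 0.10 over all probes, reached by Acat1 in males at 0.5 and 5 mg/kg and in females at 5 mg/kg, and by Bdh1 in females at 5 mg/kg. Pdk3 is not drawn, since several of its groups had no read, nor is Pdk4, whose male controls had no read.

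The ratio of Acat1 to Bdh1 reads within a library does not depend on the scaling of the library. This measure was added after the values above had been seen. Its p values therefore describe the separation of these mice and are not an independent test. On the log2 scale it was 0.87, 1.04, 1.20, 1.32 and 1.09 in male controls, 1.53, 1.67, 1.93, 2.12 and 1.57 in males at 0.5 mg/kg, and 1.56, 1.92, 2.45, 1.71 and 1.75 in males at 5 mg/kg. The males at both doses lay above every male control. The means of the 2 groups rose by 0.66 and 0.77 (two-sided exact permutation test, p = 0.00794 in both, the smallest value that 5 against 5 mice allow, and 0.0238 after adjustment over 6 comparisons). At 0.1 mg/kg the males were 0.34 higher (exact permutation p = 0.0714, adjusted 0.143), with 3 of 5 mice above all controls.

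In females this ratio was 1.75 ± 0.18 in controls (SD, n = 5), against 1.10 ± 0.17 in male controls (n = 5). It was 0.31, 0.10 and 0.08 higher than in the controls, from the lowest dose to the highest (exact permutation tests, adjusted p = 0.357, 0.629 and 0.651), and all 3 groups overlapped with the controls. Against the second Bdh1 probe, the control means were 3.08 ± 0.43 in females and 2.91 ± 0.47 in males, a smaller gap than with the first. With the second probe the ratio in males rose by 0.49 and 0.72 at the 2 higher doses (exact permutation tests, adjusted p = 0.0952 in both). Whether the change of the ratio differs between the sexes was not tested. The comparisons within a sex share their control mice.

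**Figure D3:**
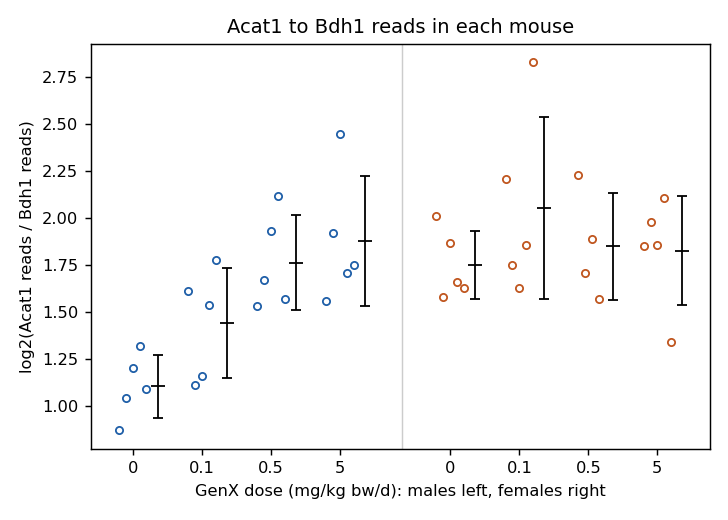
The log2 ratio of Acat1 to Bdh1 reads in each mouse by sex and GenX dose, with circles for mice and bars for the mean ± SD. Males move from 1.10 ± 0.17 in controls to 1.88 ± 0.34 at 5 mg/kg, while the female groups lie around a mean of 1.75 to 2.05 at every dose.

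The promoter rows of RefSeq used here (build GRCm38.p6) covered 5 of the 6 genes, and none was used for Acat1. The windows of Bdh1 and Pdk4, called at 5 mg/kg in females and in males respectively, are printed from 250 to 51 bases before the start of the gene, in the direction of the gene. They were searched on both strands for AGGTCA and GGGTCA, 6-base half-sites of the kind that nuclear receptors such as the PPARs bind, and matches are in capitals. The Bdh1 window (chr16:31422047-31422246, plus strand) is that of the first of its 2 starts, and the Pdk4 window is chr6:5496329-5496528, minus strand.

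Bdh1: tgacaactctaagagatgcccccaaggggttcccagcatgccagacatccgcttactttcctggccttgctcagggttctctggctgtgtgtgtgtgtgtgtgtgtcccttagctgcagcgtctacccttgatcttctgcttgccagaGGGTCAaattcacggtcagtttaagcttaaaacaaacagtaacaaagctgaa

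Pdk4: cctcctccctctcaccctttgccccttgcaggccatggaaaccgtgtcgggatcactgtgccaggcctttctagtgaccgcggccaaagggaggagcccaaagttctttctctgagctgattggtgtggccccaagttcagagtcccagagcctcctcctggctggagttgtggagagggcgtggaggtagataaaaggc

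The Bdh1 window held GGGTCA, from 102 to 97 bases before the start, and no AGGTCA, and the window of the second Bdh1 start held neither. The Pdk4 window held neither, nor did the windows of Pdk2 and Pdk3, and the second of the 2 Pdk1 windows held GGGTCA. Of the 32851 promoter windows of 200 bases in the table, 9.4% held GGGTCA, 11.4% held AGGTCA and 19.6% held at least 1 of them. A match of these letters is a description of the sequence and does not show that a factor binds there.

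Among the kinases, Pdk1 and Pdk2 were read in all 39 mice and were not called in any comparison. Pdk1 (chr2:71873224-71903858, plus strand) averaged 24.3 ± 13.8 CPM in male controls and 21.3 ± 5.8 CPM in males at 5 mg/kg (SD, n = 5 each), a log2 fold change of -0.19 ± 0.31 (edgeR adjusted p = 0.983). In females it averaged 27.8 ± 5.6 CPM in controls and 32.04 ± 8.66 CPM at 5 mg/kg (n = 5 each), a change of 0.21 ± 0.31 (edgeR adjusted p = 1). Its furthest value from the controls was at the lowest dose in males, with 28.3 to 51.3 CPM against 9.75 to 46.8 CPM and a log2 fold change of 0.72 ± 0.31 (edgeR adjusted p = 0.35). These groups overlapped.

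Pdk2 (chr11:95026258-95041354, minus strand) averaged 50.5 ± 15.3 CPM in male controls and 43.8 ± 17.3, 40.8 ± 8.8 and 38.3 ± 7.2 CPM in males at 0.1, 0.5 and 5 mg/kg (n = 5 each). The log2 fold changes were -0.21 ± 0.25, -0.31 ± 0.25 and -0.40 ± 0.25, with edgeR adjusted p of 1, 0.748 and 0.408. In females the mean was 45.4 ± 11.9 CPM in controls and 62.6 ± 12.5, 49.96 ± 12.79 and 52.1 ± 10.8 CPM at the 3 doses (n = 5, 5, 4 and 5). The log2 fold changes were 0.47 ± 0.25, 0.14 ± 0.26 and 0.20 ± 0.25 (edgeR adjusted p = 0.582, 1 and 1). With SEs of this size, the groups of both kinases overlapped at every dose, and the counts cannot tell these values from no change.

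Pdk3 (chrX:93764607-93832201, minus strand), an isoform known mainly from other tissues than liver, was close to the limit of detection. Reads were found in 9 of the 39 mice, with at most 88 reads, worth 2.4 captured molecules. These were 1 of 5 mice in each control group, none at 0.1 mg/kg, 2 males and 3 females at 5 mg/kg, and 2 females and no male at 0.5 mg/kg. No comparison was called, and the fitted fold changes of this gene rest on groups with no read or a few molecules, so none is described here.

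Pdk4 (chr6:5483351-5496309, minus strand) went from no read to a clear signal in males. None of the 5 male controls had a read. At 0.1 mg/kg the males had 35, 29, 43, 0 and 0 reads and at 0.5 mg/kg 0, 0, 28, 0 and 0 reads, each nonzero count being worth about 1 molecule. At 5 mg/kg the males had 659, 1389, 427, 122 and 507 reads, or 44.5, 82.5, 32.6, 8.66 and 35.7 CPM (mean 40.8 ± 26.8, n = 5). All 5 males at this dose lay above all males of the other groups, and their own values were widely spread.

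Pooled over the 5 males at 5 mg/kg, the reads stood for 125 molecules, or 44.2 CPM counted in molecules, with an exact Poisson 95% interval of 36.8 to 52.6 that covers counting error only. The male controls had no read among an estimated 1647106 molecules, which allows up to 1.82 CPM in molecules (3 molecules over the group). Taken against this floor, Pdk4 was at least 24.3-fold higher at 5 mg/kg, a bound that does not include the counting error of the treated group. The difference was called (edgeR adjusted p = 0.000111), as was the step from 0.5 to 5 mg/kg in males (edgeR adjusted p = 0.0143). At 0.1 and 0.5 mg/kg it was not called (edgeR adjusted p = 0.35 and 0.24), but without the filter on low counts it was (edgeR adjusted p = 0.00101 and 0.0194), and DESeq2 called it at 0.1 mg/kg (adjusted p = 0.0356). Without the filter 0.173% and 2.11% of probes were called at these doses, and with DESeq2 1.41% at 0.1 mg/kg. These fits rest on 3 molecules and 1 molecule against none.

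In females, Pdk4 was present in some mice of every group. The controls had 100, 0, 39, 35 and 0 reads, the females at 0.1 mg/kg 56, 105, 0, 38 and 0, and the 4 at 0.5 mg/kg 75, 0, 121 and 39. At 5 mg/kg the females had 216, 356, 64, 339 and 308 reads, or 16.3, 25.4, 5.10, 24.8 and 27.6 CPM (mean 19.8 ± 9.3, n = 5). Of these, 4 lay above the highest control, at 8.502 CPM, and mouse 453 did not. The log2 fold change was 2.77 ± 1.33 and was not called on reads (edgeR adjusted p = 0.26). With reads converted to captured molecules it was 2.71 ± 0.71 and was called (edgeR adjusted p = 0.00679). That setting tested 5325 probes and called 18% of them, against 3.66% on reads. Pooled, the females at 5 mg/kg had 34 molecules, 21.1 CPM in molecules (Poisson 95% interval 14.6 to 29.5), and the female controls 6 molecules, 2.92 CPM in molecules (1.07 to 6.35).

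The effect on Pdk4 at 5 mg/kg was called as smaller in females than in males on reads (edgeR adjusted p = 0.0655). This interaction rests on the absence of reads in male controls and was not called with counts in captured molecules (edgeR adjusted p = 0.162) or with all 40 libraries (edgeR adjusted p = 0.202). Likewise, control females had more Pdk4 reads than control males (edgeR adjusted p = 0.0176), a difference of 6 molecules against none that was not called in molecules (edgeR adjusted p = 0.188). The male libraries at 5 mg/kg held more molecules than those of male controls, as given above, and the bound on the fold change takes this number into account.

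Around these enzymes, 23 genes of the same steps were listed by role and 22 of them could be tested. The list held genes for ketone body use and transport and relatives of Acat1, the subunits of pyruvate dehydrogenase, the phosphatases that reverse the kinases, the mitochondrial pyruvate carrier, and the branched-chain kinase with its complex. In males at 0.5 and 5 mg/kg and in females at 5 mg/kg, 1 of the 22 was called, as higher, beside 2.38%, 8.28% and 3.66% of all probes, so at 5 mg/kg the list had no more calls than a share near the background. The other 3 comparisons had no call. The median log2 fold change over the list at 5 mg/kg was 0.12 in males and 0.22 in females, beside 0.10 and -0.01 over all probes. None of the 5 subunits of pyruvate dehydrogenase, the 3 phosphatase genes, the 2 carrier subunits and the 5 branched-chain genes was called at any dose.

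The called gene was Slc16a1, which encodes the monocarboxylate transporter MCT1 that carries lactate, pyruvate and ketone bodies over the cell membrane (chr3:104638668-104658462, plus strand). It was at 122.1, 164.3, 159.3, 143.5 and 131.9 CPM in male controls, 273, 166, 222, 224.3 and 243.3 CPM in males at 0.5 mg/kg, and 388.2, 489.4, 417.8, 416.6 and 418.5 CPM in males at 5 mg/kg. Each male at these doses was above each control, at 0.5 mg/kg by a small margin for its lowest mouse. The log2 fold change was 0.65 ± 0.16 at 0.5 mg/kg (edgeR adjusted p = 0.0197) and 1.56 ± 0.16 at 5 mg/kg (edgeR adjusted p = 4.22e-10). The call at 0.5 mg/kg was lost with all 40 libraries (edgeR adjusted p = 0.23). In females the level went from 201.9 ± 49.9 CPM in controls to 459.1 ± 60.1 CPM at 5 mg/kg (n = 5 each), a log2 fold change of 1.19 ± 0.16 (edgeR adjusted p = 7.29e-07).

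Unlike Acat1 and Bdh1, for which no step was called, Slc16a1 was also called as higher at 5 than at 0.5 mg/kg, by 0.92 in males (edgeR adjusted p = 0.000169) and by 0.78 in females (edgeR adjusted p = 0.00796). Whether the steps of these genes differ from each other was not tested.

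**Figure D4:**
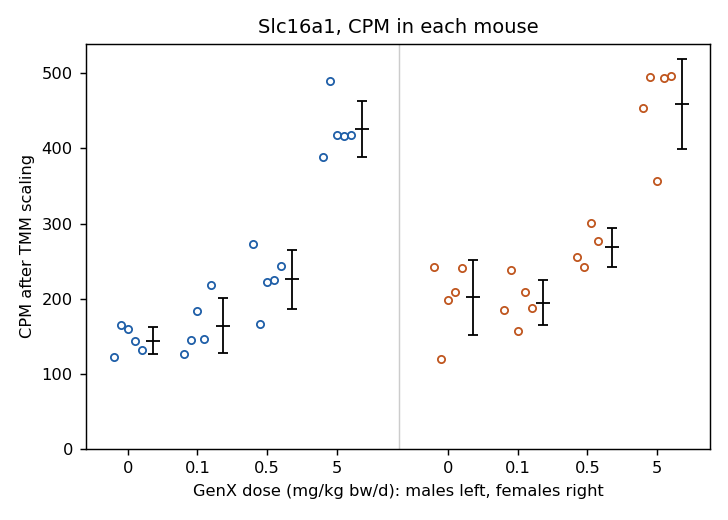
Level of Slc16a1 in each mouse, in CPM after TMM scaling, by sex and GenX dose, with circles for mice and bars for the mean ± SD. At 5 mg/kg the mice lie between 388.2 and 489.4 CPM in males and between 356.6 and 496.7 CPM in females, above all controls.

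The patterns over the 39 mice were also compared by the Pearson r of log2 CPM with the 12411 other genes that passed the filter. The mice share their dose groups and sexes, so these values describe likeness in this experiment and carry no test. The genes most like Acat1 were Acadm, the medium-chain acyl-CoA dehydrogenase (r = 0.889), Acot1, an acyl-CoA thioesterase (0.870), and Ehhadh, the peroxisomal bifunctional enzyme (0.867). Those most like Bdh1 were Fabp1, the liver fatty acid binding protein (r = 0.770), Spon2 (0.752) and Ephx2, the soluble epoxide hydrolase (0.733). Those most like Pdk4 were Fabp3, another fatty acid binding protein (r = 0.775), the collagen gene Col4a1 (0.767) and Slc16a1 (0.749), for a gene with reads in 23 of 39 mice. By Spearman's rho the genes named for Acat1 kept ranks 1, 2 and 3. Those for Bdh1 had ranks 4, 11 and 3, with Decr1 at rank 1, and those for Pdk4 ranks 2, 4 and 27, so that the likeness of Slc16a1 to Pdk4 depends on the measure.

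The kinases that were not called had weaker neighbours. They were Pdzk1 (r = 0.612), Tes3-ps (0.57) and Magoh (0.558) for Pdk1, and the branched-chain phosphatase gene Ppm1k (0.612), Aass (0.585) and Srgn (0.560) for Pdk2. The values for Pdk3, led by Mapkapk3, Irf1 and Fam227a, come from 9 mice with reads and were not read as likeness. Between the genes other than Pdk3, Acat1 followed Bdh1 with r = 0.59 and Pdk4 with r = 0.57, while Bdh1 and Pdk4 had r = 0.28. Pdk1 and Pdk2 followed neither of the enzymes Acat1 and Bdh1, with r between -0.23 and -0.07.

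Cell type markers were measured beside these genes, and their part in the results was not tested. The summed level of 5 hepatocyte markers was 6540 to 7520 CPM in male controls and 4940 to 6220 CPM in males at 5 mg/kg, where Apob, Cps1, Hnf4a and Serpinc1 were called lower. Males at 0.5 mg/kg had 5230 to 6450 CPM, with Apob and Serpinc1 called lower. In females it was 7470 to 7830 CPM in controls and 5880 to 7090 CPM at 5 mg/kg, with Cps1, Hnf4a and Serpinc1 called lower. Most reads of this sum came from Alb (1981951 over the 39 mice) and Serpinc1 (1075199), so it mainly follows these genes. Acat1, Bdh1 and Pdk4 were called higher in some of the same groups, and a link to the markers was not tested. Summed markers of dividing cells were 0 to 2.94 CPM in male controls and 26.8 to 72 CPM in males at 5 mg/kg, with Top2a called higher, and 0 to 10.6 and 0 to 42.3 CPM in females. Top2a had no read in male controls.

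Stellate cell markers summed to 75.9 to 124 CPM in male controls and 125 to 144 CPM in males at 5 mg/kg, with Col1a1 called higher. In females the sum was 88.6 to 120 CPM in controls and 64.5 to 115 CPM at 5 mg/kg, with no call. The median log2 fold change of these markers at 5 mg/kg was 0.15 in males and -0.44 in females. Of the 5 adipocyte markers, Adipoq, Plin1 and Retn had no read in male controls and in males at 5 mg/kg, and Cidec was called higher. Lep had 18 reads in 1 male at 5 mg/kg and no read in male controls. In females at 5 mg/kg, Adipoq had 20 reads and Plin1 had 21, each in 1 mouse. Endothelial markers summed to 134 to 164 CPM in male controls and 74.1 to 149 CPM at 5 mg/kg, with Clec4g called lower. No marker of Kupffer cells, cholangiocytes or lymphocytes was called at 0.5 or 5 mg/kg in males or at 5 mg/kg in females.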

How the data were processed

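Liver sections of 40 mice were measured with TempO-Seq on an Illumina sequencer. The authors deposited raw counts of the reads assigned to every probe, one column for each mouse and not normalized. The submitters' processing notes name bcl2fastq 2.17.1.14, Bowtie and build mm10. All values here were computed from these counts. The depth criterion of the study left out mouse 355. Tests used R 4.3.3 and edgeR 4.0.16 (TMM, filterByExpr, glmQLFit and glmQLFTest) with a coefficient for each of 8 sex and dose groups, in place of DESeq2, the tool of the study, which was an alternative (version 1.42.0). P values were adjusted over all 17877 probes. The most counted probe stood for a gene. Log2 CPM used a prior count of 2.

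The reads worth 1 molecule were taken from the highest point of the smoothed histogram of counts between 12 and 120 reads, and are an estimate. Floors are 3 molecules over a group. The assay has no molecular identifiers and reads are copies, so intervals and floors cover counting error only. Both tools and the peak finder were run on simulated data, with changes placed only in probes above a minimum mean count. The outcome of these runs is not given here. Gene positions are those of GENCODE on GRCm38, the assembly of mm10. The positions of the probes were not analysed here.

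Named were the 6 genes, listed pathway genes called in at least 1 dose comparison, and the 3 genes with the highest r for each of the 6. The genes and lists were chosen with earlier results of these data known. Alternatives were DESeq2, its size factors in edgeR, no filter, all 40 libraries, fits of the 2 groups of a comparison alone, sums over the probes of a gene, the other Bdh1 probe, counts in molecules, a 5% threshold, ranking by Spearman's rho, and leaving out each mouse. The Acat1 to Bdh1 ratio was added after seeing the data.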

Additional observations from a re-analysis of the deposited data

Results flagged for a closer look

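Among 44 groups of mice with reads of 1 of the 6 genes, 5 held a mouse far from the others by Dixon's 95% limit. For normally distributed values, chance flags about 1 in 20 groups. Bdh1 was at 56.32 CPM in female 255 at 0.1 mg/kg, where the others had at least 128.3 CPM. It was at 271.2 CPM in female 455 at 5 mg/kg, where the next mouse had 214.6 CPM. Male control 102 had 4.004 CPM of Pdk3 and female control 154 had 5.643 CPM, in groups otherwise at 0. Male 303 at 0.5 mg/kg had 2.259 CPM of Pdk4, about 1 molecule, in a group otherwise at 0. In groups otherwise at 0 a single nonzero mouse is always flagged, so the rate of 1 in 20 does not apply to them.

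The effect of 5 mg/kg on Pdk4 differed between the sexes by an interaction in edgeR, with a fitted female minus male effect of -9.30 on the log2 scale (adjusted p = 0.0655). The size of this value depends on the prior count, since male controls had no read, and the call was lost in captured molecules.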

How the results depend on the processing

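No paired analysis was possible because the mice carry separate numbers that are not shared between groups. Of the values recomputed without 1 mouse, 506 kept their call and did not change sign, 4 gained a call, 21 changed sign without being called, and none lost its call. Values that fell to 0.00 are counted among the 506. Of those under the other alternatives, 513 kept direction and call, 16 gained a call, 10 lost it and 5 changed sign without a call. With all 40 libraries, Acat1 was not called in males at 0.5 mg/kg (0.80) or females at 5 mg/kg (0.84), nor was Bdh1 in females at 5 mg/kg (0.75), which left 0 of the 6 genes called in these comparisons. Of the dose effects of these genes, those of Acat1 and Pdk4 in males at 5 mg/kg kept their calls. The second Bdh1 probe gave 0.62 in females at 5 mg/kg and no call. Acat1 in females at 0.5 mg/kg was called, as the 1 gene of the 6, with DESeq2 (0.51) and in captured molecules (0.52). Pdk4 was called in females at 5 mg/kg in captured molecules (2.71), in males at 0.1 mg/kg with DESeq2 (6.95) and without the filter (7.61), and in males at 0.5 mg/kg without the filter (5.59), which made 1 and 2 called genes. These last 3 are fitted values against controls with no read and are not bounds. Sign changes with all 40 libraries, none of them called, were in females at 0.5 mg/kg Pdk1 (-0.26) and Pdk2 (-0.19), in the interaction at 0.5 mg/kg Bdh1 (-0.07) and Pdk1 (-0.22), and in the female step Pdk3 (0.21). The cause was not tested.

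Leaving out each mouse in turn gave these ranges on the log2 scale for values that changed call or sign or fell to 0.00. Acat1 in females at 0.5 mg/kg gave 0.39 to 0.65, with 0 to 1 of the 6 genes called. Its ratio to Bdh1 gave 0.25 to 0.42 in males at 0.1 mg/kg, called without males 202 or 203, and -0.02 to 0.20 in females at 0.5 mg/kg. In females at 0.1 mg/kg, Bdh1 gave -0.18 to 0.10, Pdk1 -0.11 to 0.20, Pdk4 -0.79 to 0.83 and Slc16a1 -0.19 to 0.02. In females at 0.5 mg/kg, Pdk1 gave -0.13 to 0.17, Pdk2 -0.04 to 0.29, Pdk3 -0.63 to 8.02 and Pdk4 -0.06 to 1.61. In males, Pdk1 gave -0.24 to 0.34 at 0.5 mg/kg and -0.39 to 0.19 at 5 mg/kg, and Pdk3 -1.62 to 5.50 at 5 mg/kg. Pdk4 in males at 0.5 mg/kg gave 0.00 to 5.90, so its difference vanished without 1 mouse. Pdk3 likewise reached 0.00, with -7.25 to 0.00 in females at 0.1 mg/kg and -6.74 to 0.00 in males at 0.1 and 0.5 mg/kg. Counts of called probes over the whole table moved by over 1.5 times with several settings, which also changed the number of probes tested: 17877 with edgeR, 17956 to 20188 with DESeq2, 17247 with all 40 libraries, 23058 without the filter, 12386 to 13528 within the groups compared and 5325 in molecules. In order of dose, edgeR called 6, 425 and 1480 in males and 0, 38 and 655 in females, DESeq2 273, 864 and 1860 and 166, 302 and 988, edgeR with all 40 libraries 0, 91 and 834 and 0, 8 and 238, without the filter 40, 487 and 1414 and 15, 108 and 703, within the groups compared 0, 476 and 1680 and 0, 22 and 498, and in molecules 0, 741 and 1876 and 0, 100 and 956. Depth limits Pdk3 and Pdk4, for which groups held 0 to 7 molecules below 5 mg/kg.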
